A study of Homo sapiens with 47 samples.

Results

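Heat shock proteins and their partner chaperones were examined in circulating tumor cells (CTC) of the human triple-negative breast cancer line MDA-MB-231-LM2 (LM2). The members were the protein-coding genes with a row in the deposited table whose GENCODE symbol starts with HSPA and a number or with HSP90, is HSPB, DNAJA, DNAJB, DNAJC or CCT with a number, or is HSPD1, HSPE1, HSPH1 or TCP1. This rule took 72 of 25739 rows, and used no measured value. GENCODE 44 holds 77 protein-coding genes of such names, and DNAJB8, DNAJB13, HSPB2, HSPB3 and HSPB6 were not analysed here.

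LM2-GFP cells were injected into the mammary fat pad of immunodeficient NSG mice, and after tumor growth GFP-tagged CTCs were enriched from whole blood by size and picked singly. The 37 CTCs came from 5 mice, with 2 CTCs from mouse 5541, 4 from 5542, 10 from 5545, 17 from 5546 and 4 from 5549. The comparison group was 6 LM2 cells grown in tissue culture, which were taken as 1 culture since the labels name no separate cultures, and both groups were the same line, processed by SMARTseq2 under the same batch label. The CTCs had passed through blood, a filtration cassette and antibody staining on the cassette, none of which the labels give for the cultured cells, so the host and the handling cannot be told apart here.

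Chaperones bind unfolded or partly folded proteins and keep them from aggregating. HSP70 proteins bind short stretches of a client and release it in a cycle driven by ATP, in which J-domain proteins (DNAJA, DNAJB, DNAJC) deliver clients and speed up hydrolysis, and HSP110 proteins exchange the nucleotide. HSP90 acts late in the folding of kinases and receptors, the CCT ring encloses actin and tubulin, HSPD1 and HSPE1 form the folding chamber of mitochondria, and small heat shock proteins hold unfolded proteins without ATP. Many of these genes are transcribed at all times, and some are induced by the factor HSF1 on heat or proteotoxic stress or, for those of the endoplasmic reticulum (ER), by the unfolded protein response.

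The sequences upstream of the members that the results below turn on were taken from RefSeq on GRCh38.p14. They are the 250 bases before the start of HSPA8, HSPB1, HSPA1A, HSPA5 and HSP90B1, given in the direction of transcription, and the bases between the start sites of HSPD1 and HSPE1, which are transcribed away from each other. Capitals mark a heat shock element of 2 units (GAANNTTC or TTCNNGAA, including those within an element of 3 units) or the ER stress response element, which is CCAAT and CCACG spaced by 9 bases, on either strand.
HSPA8, the constitutive cytosolic HSP70, chr11:123062137-123062386, minus strand: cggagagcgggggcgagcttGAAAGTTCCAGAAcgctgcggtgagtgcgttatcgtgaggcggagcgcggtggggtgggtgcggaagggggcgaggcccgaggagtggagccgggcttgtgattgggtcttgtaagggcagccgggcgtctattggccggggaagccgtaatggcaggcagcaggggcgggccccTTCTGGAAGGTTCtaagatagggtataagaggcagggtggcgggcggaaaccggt
HSPB1, the small heat shock protein HSP27, chr7:76302423-76302672, plus strand: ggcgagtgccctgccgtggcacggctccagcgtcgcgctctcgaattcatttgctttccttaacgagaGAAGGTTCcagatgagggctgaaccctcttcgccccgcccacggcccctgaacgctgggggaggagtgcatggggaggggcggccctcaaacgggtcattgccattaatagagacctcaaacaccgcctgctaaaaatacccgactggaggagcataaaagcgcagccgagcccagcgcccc
HSPA1A, the stress-inducible HSP70, chr6:31815293-31815542, plus strand: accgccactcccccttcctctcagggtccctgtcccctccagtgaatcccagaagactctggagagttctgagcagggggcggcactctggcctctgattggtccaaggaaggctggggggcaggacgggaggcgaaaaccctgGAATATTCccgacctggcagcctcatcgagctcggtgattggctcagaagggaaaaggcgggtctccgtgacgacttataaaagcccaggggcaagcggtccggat
HSPA5, the ER HSP70 known as BiP, chr9:125241344-125241593, minus strand: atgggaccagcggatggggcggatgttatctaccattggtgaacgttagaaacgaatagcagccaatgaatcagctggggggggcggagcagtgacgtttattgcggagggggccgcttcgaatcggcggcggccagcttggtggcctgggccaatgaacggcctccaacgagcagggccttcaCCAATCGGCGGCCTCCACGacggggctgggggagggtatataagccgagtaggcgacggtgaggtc
HSP90B1, the ER HSP90, chr12:103930160-103930409, plus strand: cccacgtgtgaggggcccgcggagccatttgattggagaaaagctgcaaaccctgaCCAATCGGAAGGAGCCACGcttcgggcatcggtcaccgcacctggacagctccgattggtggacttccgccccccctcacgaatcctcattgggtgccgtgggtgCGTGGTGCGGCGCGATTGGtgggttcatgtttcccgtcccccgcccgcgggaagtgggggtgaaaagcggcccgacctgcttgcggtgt
HSPD1 to HSPE1, chr2:197500275-197500378, plus strand: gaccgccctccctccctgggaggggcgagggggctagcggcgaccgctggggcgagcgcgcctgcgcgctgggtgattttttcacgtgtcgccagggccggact

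Of the 72 members, 66 had a RefSeq window, and the same 250 bases of 35116 genes were searched for the same letters. The element of 2 units was in 12 of the 66 members (18.2%) and in 11.6% of all windows. Its extended form of 3 units (GAANNTTCNNGAA or TTCNNGAANNTTC, which holds the shorter element) was in DNAJB6, HSPA6 and HSPA8, which is 4.55% of the members against 0.441% of all windows. The ER element was in HSPA5 and HSP90B1, 3.03% of the members against 0.0740% of all windows. The start sites of HSPD1 and HSPE1 lie 104 bases apart. These matches describe the letters of the windows and say nothing of whether a factor was bound.

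Values are normalized counts, reads per gene scaled by a size factor for each cell. Depth was 469614 to 2041333 reads on genes per CTC and 776949 to 1186197 per cultured cell. Reads are copies made by amplification and were counted without unique molecular identifiers, so depth does not give the error of counting molecules. This error is large for members with a few reads. CTC 5545-6 had 1049915 reads and 2313 genes detected, while 5545-4 had 469614 and 6753. The cells' numbers of detected genes were 2313 to 12299 in CTCs and 7369 to 13679 in culture. Of the LM2 markers, VIM, CD44, KRT18, KRT8, CAV1 and ANXA2 were detected in 37 of 37 CTCs and EGFR in 33. The erythroid markers HBB, HBA2 and ALAS2 were absent from all cultured cells and together took 0 to 1.28% of the reads of a CTC, while PTPRC, which encodes CD45, was detected in 11 CTCs. The neutrophil list, of which S100A9 was found in 30 CTCs, took up to 0.0706% of the reads of a CTC, the leukocyte list up to 0.0459% and the platelet list up to 0.00956%. The blood was that of NSG mice, and the authors describe alignment to the human genome only. Whether these counts are mouse reads placed on human genes was not tested. The part of RNA from blood cells in the chaperone values was not tested either.

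Reads on chaperone genes were fewer in CTCs than in cultured cells. The 72 members together took 0.675% to 2.53% of the reads on genes in CTCs, with a median of 1.46%, and 2.31% to 3.77% in cultured cells, with a median of 2.74%. In 36 of 37 CTCs the share was under the lowest cultured cell. The mouse medians were 1.10% in 5541, 1.504% in 5542, 1.74% in 5545, 1.24% in 5546 and 1.69% in 5549, and their mean was 1.45% ± 0.278 (SD, n = 5 mice). All 5 mouse medians therefore lay below every cultured cell, but the culture is 1 sample and no test was made. Among the CTCs of 5546, the 9 libraries with the letter c in their names had a median of 1.41% and the 8 with the letter s 1.12%, with medians of 9670 and 6454 genes detected. The mitochondrial share of reads was 4.28% to 23.9% in CTCs, with a median of 7.07%, and 4.05% to 5.74% in cultured cells, with a median of 4.59%, and 29 of 37 CTCs were above the highest cultured cell. Across the 37 CTCs the chaperone share had a Spearman's rho of 0.28 with genes detected, -0.04 with reads, -0.19 with the mitochondrial share and -0.29 with the erythroid share, and the part of these measures in the difference from culture was not tested.

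The families contributed unequally to this gap. HSP90 genes held the largest part of the chaperone reads, with a median of 0.664% of all reads in CTCs and 0.979% in culture, and 20 of 37 CTCs were under the lowest cultured cell. The CCT ring had 0.230% in CTCs and 0.646% in culture, and the HSP70 family 0.182% and 0.520%, with 36 and 33 CTCs under the lowest cultured cell. HSP110 genes had 0.00882% in CTCs and 0.0422% in culture. Small heat shock proteins went the other way, with a median of 0.0146% in CTCs and 0.00952% in culture, and 20 of 37 CTCs were above the highest cultured cell. By mouse these were 1 of 2 CTCs in 5541, 2 of 4 in 5542, 9 of 10 in 5545, 6 of 17 in 5546 and 2 of 4 in 5549. Of this family HSPB1 was detected in 37 CTCs, HSPB8 in 6, and HSPB7 and HSPB9 in 1 each. DNAJC genes overlapped most, with 0.0950% in CTCs and 0.144% in culture.

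**Figure D1:**
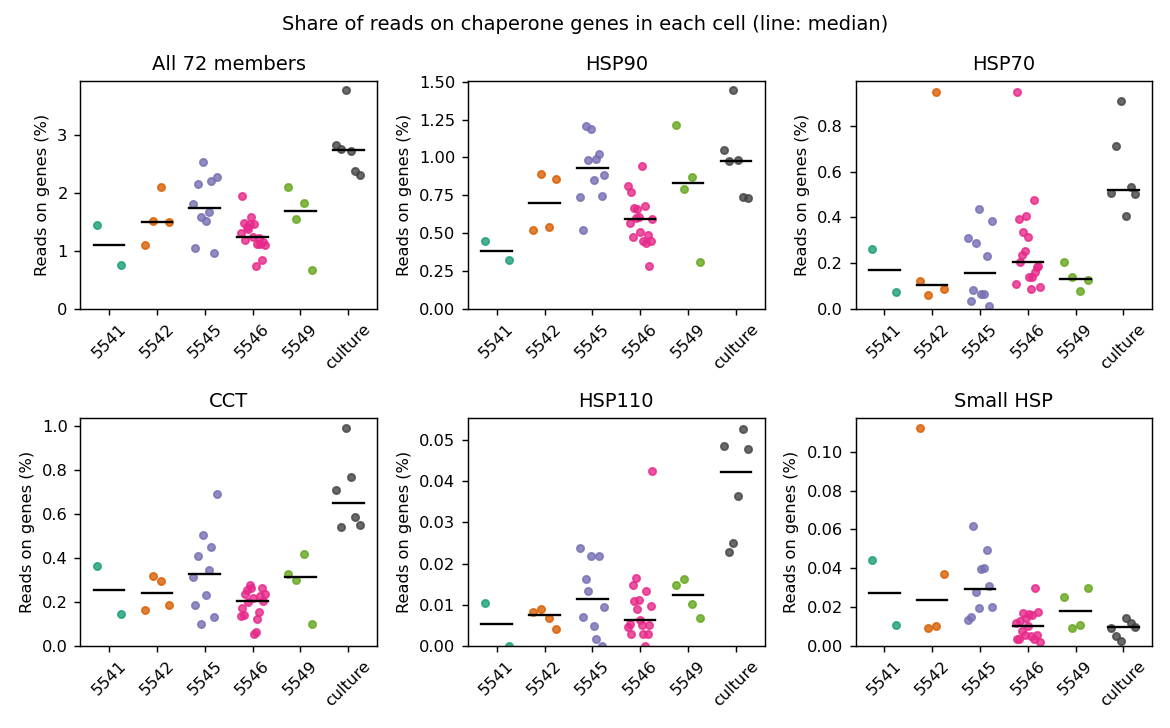
Percent of the reads on genes that fell on all 72 members and on 5 families (y axis) in each of the 37 CTCs by mouse and the 6 cultured cells (x axis). Each point is a cell and each line a median. The CTC medians of all members (1.10% to 1.74%) lie below the lowest cultured cell (2.31%). The small heat shock proteins reach their highest shares in CTCs and overlap with culture in part.

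A single gene was compared by a rule of size. A gene was called lower or higher when, in every one of the 5 mice, its mean over the CTCs was at least 2-fold away from its culture mean on that side, with 1 added to both means and a larger mean of at least 8. By this rule 22 members were lower in CTCs and 0 were higher. Over all genes that could be called, 26.4% were lower and 0.115% higher, and 43.1% of the 51 members that could be called were lower.

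The scale of the values decides much of this count. Size factors left the CTCs with lower totals than the cultured cells, so that the log2 ratio of the median gene was -1.57 over 9119 genes with a mean of at least 8 in CTCs or culture, and that of the 53 members with such a mean was -1.74. In reads scaled to an equal total in every cell (RPM) the medians were -0.81 and -1.01. In RPM 6 members remained lower (CCT3, DNAJC11, HSPA4, HSPA8, HSPA9 and HSPH1) with 0 higher, against 9.58% of all genes lower and 0.514% higher. DNAJC11 had few reads, with detection in 17 of 37 CTCs, a CTC median of 0 and a culture mean of 22.5 normalized counts. When the ratios of each mouse were centred on its median gene, 0 members were lower and 0 higher by 2-fold in all 5 mice, while 2.79% of all genes were lower and 2.26% higher. Ratios are therefore given below relative to the median gene as well, and a gene called lower on the deposited scale may be at the level of the median gene.

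Relative to the median gene, 9 of the 53 members lay below it in all 5 mice (CCT3, CCT7, DNAJC11, HSPA14, HSPA4, HSPA4L, HSPA8, HSPA9 and HSPH1) and 4 above it (DNAJC18, DNAJC5, HSP90B1 and HSPB1), where HSP90B1 rests in mouse 5542 on CTC 5542-4. DNAJC18 rests on 5542-4 in mouse 5542 and on 5549-6 in mouse 5549, the only CTCs of these mice with reads of it. Of all genes, 13.2% were below and 14.6% above in all 5 mice. Of the members 17.0% were below and 7.55% above. The median member lay at -0.24, while single members ran from -1.95 for HSPA4L to 2.47 for DNAJC18.

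**Figure D2:**
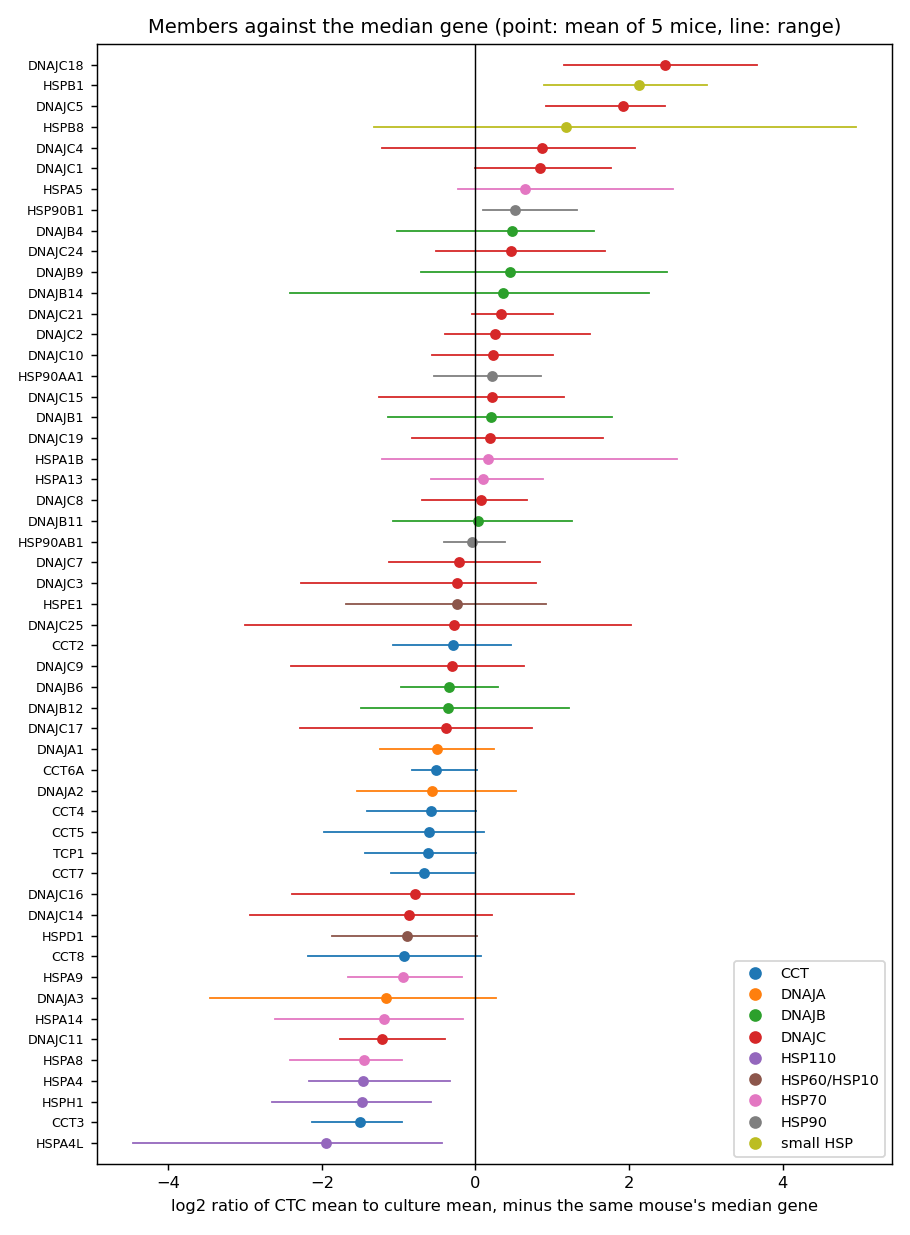
Log2 ratio of the CTC mean to the culture mean for the 53 members with a mean of at least 8, minus the median gene of the same mouse (x axis), by gene (y axis) and coloured by family. Points are means of the 5 mice and lines run from the lowest to the highest mouse, so that HSPA8 lies below 0 and HSPB1 above 0 in all 5 mice.

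The cytosolic HSP70 that every cell uses, HSPA8 (chr11:123057489-123063230), was lower in every CTC than in any cultured cell. The mean of its normalized counts was 775 in 5541, 435 in 5542, 1313 in 5545, 1116 in 5546 and 571 in 5549, or 842 ± 367 (SD, n = 5 mice), against 6021 over the cultured cells, which ranged from 4087 to 8580. The highest CTC was 5546-s5 with 4042. The log2 ratio was -2.95 ± 0.66, and relative to the median gene it was -1.46, with mice from -2.41 to -0.96. A like gap between all CTCs and all cultured cells was seen in 0.461% of genes and in 1 other member, CCT3. In RPM no member kept it, against 0.0796% of all genes, and 35 of 37 CTCs were below the lowest cultured cell for HSPA8.

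HSPA8 was also low against HSP90 within the same cell, a ratio that no scaling moves. The log2 ratio of HSPA8 reads to those of HSP90AA1 and HSP90AB1 together had a median of -2.85 in CTCs, or 0.139 reads of HSPA8 for each read of the pair. In culture it was -0.98, or 0.507 reads. In 31 of 37 CTCs it was below the lowest cultured cell, in 1 above the highest, and the mouse medians ran from -3.54 in 5545 to -1.96 in 5546.

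The HSP110 proteins, which exchange the nucleotide of HSP70, were low as a group. HSPH1 had mean normalized counts of 25.9, 35.6, 70.0, 14.9 and 29.0 in mice 5541, 5542, 5545, 5546 and 5549 and of 250 in culture. HSPA4 had means of 14.6, 23.9, 26.5, 38.6 and 50.6 in the same mice and of 228 in culture. Both were lower by the rule of size, and 34 CTCs for HSPH1 and 33 for HSPA4 lay under the lowest cultured cell. HSPA4L, the third of them, was without reads in both CTCs of 5541 and had means of up to 21.4 in the other mice, against 70.5 in culture. Relative to the median gene the 3 members were at -1.48, -1.47 and -1.95, below it in all 5 mice. HSPA4L was detected in 15 of 37 CTCs, ran from -4.46 in 5541 to -0.44 in 5545, and was not called lower in RPM. HSPA14, a ribosome-associated HSP70, was at -1.19 and the mitochondrial HSP70 HSPA9 at -0.94.

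Of the HSP90 genes, the cytosolic forms lay near the median gene. HSP90AB1, the constitutive cytosolic form, had 2225 ± 614 normalized counts (SD, n = 5 mice) and 6261 in culture, and its position relative to the median gene was -0.04, with mice from -0.41 to 0.38. HSP90AA1, the stress-responsive form, had 2931 ± 1310 and 6508, and was at 0.22. Neither was called by the rule of size. Per kilobase of exon these were the most abundant members in the CTCs, with 767 for HSP90AB1 and 598 for HSP90AA1 over the 37 cells, ahead of HSPA8 with 210, HSPA5 with 124, DNAJA1 with 111 and HSPB1 with 109. The place of HSPA5 draws on CTCs 5542-4 and 5546-c10, with 9512 and 5408 counts, as its CTC median was 395 and its mean 807. In culture HSP90AB1 had 2101 per kilobase, HSP90AA1 1277 and HSPA8 1242. The length used is that of all annotated exons merged, 2.98 kb for HSP90AB1, 5.10 kb for HSP90AA1 and 4.85 kb for HSPA8. Their longest transcripts have 2674, 3510 and 2306 bases, so the order of members per kilobase depends on the length used.

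HSPB1, which holds unfolded proteins, lay above the median gene in all 5 mice. Its mean was 217 in 5541, 362 in 5542, 280 in 5545, 84.9 in 5546 and 97.8 in 5549, against 116 in culture, where the cells ranged from 25.1 to 186. Counts in CTCs ran from 9.16 to 1041, and 11 of 37 were above the highest cultured cell, or 19 in RPM. The groups thus overlapped, and on the deposited scale 5546 and 5549 lay below the culture mean. Relative to the median gene HSPB1 was at 2.12 ± 0.87, with mice from 0.89 to 3.02. Without CTC 5542-1, which held 1041, the mean of 5542 was 136 and the position 1.88. Across the 37 CTCs HSPB1 had a rho of -0.46 with the mitochondrial share and -0.40 with the erythroid share, whose part in its level was not tested.

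**Figure D3:**
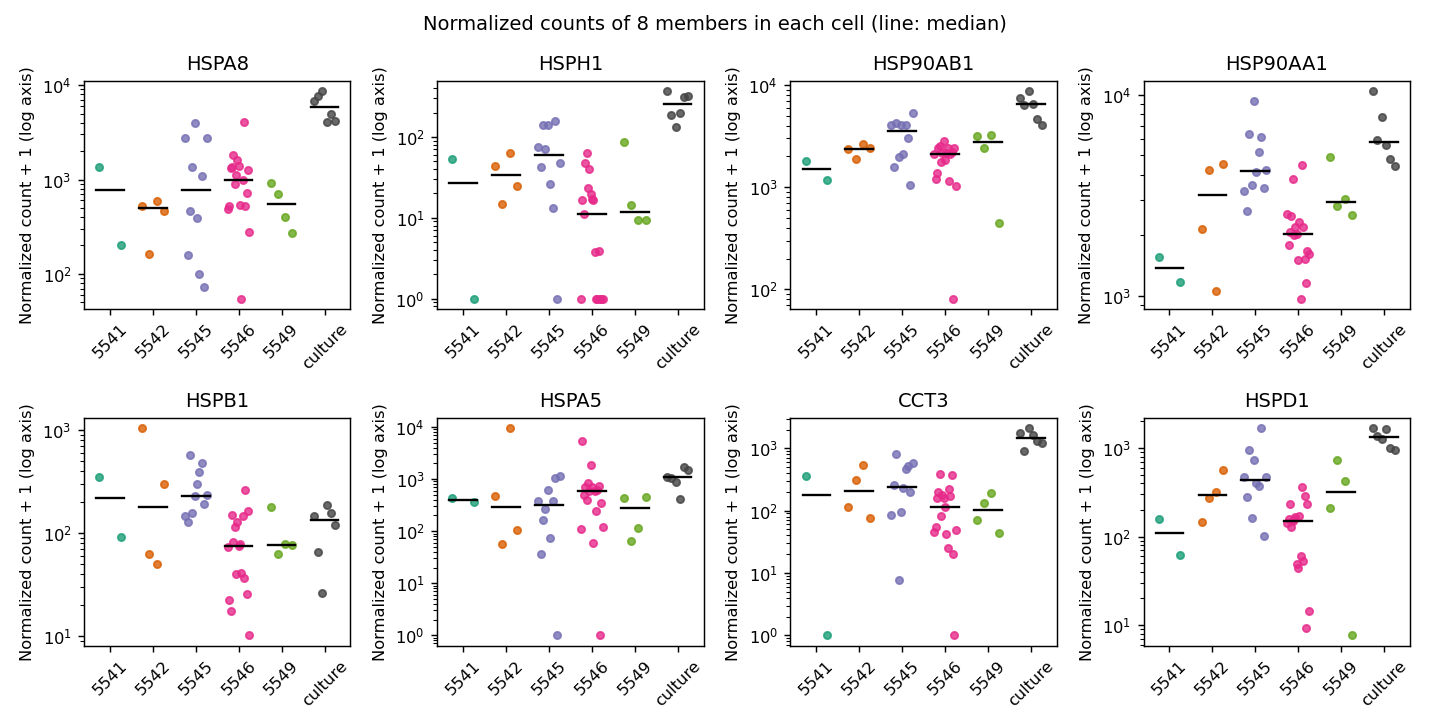
Normalized counts plus 1 on a log axis (y axis) of 8 members in each CTC by mouse and in the cultured cells (x axis), with a line at each median. HSPA8 and CCT3 of all 37 CTCs lie below the 6 cultured cells, while HSPB1 overlaps and HSPA5 has single CTCs at 9512 and 5408.

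The CCT ring is built of 8 subunits, and all 8 genes were lower by the rule of size, against 26.4% of all genes, while in RPM only CCT3 was, against 9.58%. CCT3 had means of 178, 259, 323, 134 and 109 in mice 5541, 5542, 5545, 5546 and 5549 and of 1483 in culture, and all 37 CTCs were below the lowest cultured cell at 891. The other subunits had means over mice between 204 for CCT7 and TCP1 and 518 for CCT5, and between 859 and 2008 in culture. Relative to the median gene CCT3 was at -1.499 and the others between -0.93 for CCT8 and -0.30 for CCT2. Only CCT3 and CCT7 were below the median gene in all 5 mice, and for CCT7 the margin was small. The highest mouse was at -0.023 for CCT7, against 0.004 for TCP1, 0.006 for CCT4 and 0.014 for CCT6A. Over the 28 pairs of subunits the Spearman's rho across CTCs had a median of 0.42, against 0.18 over all 1081 pairs of the 47 members with a mean of at least 8 in CTCs.

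In mitochondria, HSPD1 had 295 ± 181 normalized counts (SD, n = 5 mice) and 1310 in culture and was lower by the rule of size, whereas HSPE1 had 184 ± 105 and 521 and was not. Relative to the median gene they were at -0.89 and -0.24. These genes, whose start sites lie 104 bases apart in the stretch shown above, had the highest rho of all pairs of members across the 37 CTCs, 0.74. Within mice it was 0.53 over the 10 CTCs of 5545 and 0.21 over the 17 of 5546. The GENCODE span of HSPD1 holds HSPE1 on the other strand, strand was not used in counting, and the effect on the rho was not tested. Both genes were highest in mouse 5545, with means of 560 and 293, and had a rho of -0.51 and -0.46 with the erythroid share.

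The ER chaperones HSPA5 and HSP90B1 were not called. HSPA5, which also holds the sensors of the unfolded protein response inactive, had means of 395 in 5541, 2537 in 5542, 408 in 5545, 811 in 5546 and 266 in 5549, against 1110 in culture. The mean of 5542 came from 1 CTC: 5542-4 held 9512, and without it the mean of that mouse was 212 and the position relative to the median gene moved from 0.65 to -0.03. CTC 5546-c10 held 5408, and the highest of the other 35 CTCs held 1870. HSP90B1 was below the culture mean on the deposited scale, with a log2 ratio of -0.98, but above the median gene in all 5 mice, at 0.51. Without 5542-4 it was at 0.06, and in mouse 5542 it moved from 1.32 to -0.95, below the median gene.

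Several other ER genes were also high in CTC 5542-4. It held the highest value of all CTCs for HSPA5, HSP90B1, DNAJB9, DNAJB11 and DNAJC3, or 5 of the 6 ER members examined, and for 5 of the 10 ER folding enzymes of the fixed list. DNAJB9, a co-chaperone of HSPA5, was at 182 in this cell, against a CTC median of 1.59. SDF2L1, which works with HSPA5, was at 771 against a median of 11.0, and P4HB, a disulfide isomerase, at 4153 against 159. MANF and ERO1A of the same list were below the CTC median in this cell, at 8.88 against 15.1 and 15.0 against 41.9. CTC 5546-c10 shared the high DNAJB9, at 123, but not P4HB, which was at 137. These cells and the 6 ER members were singled out after their values were seen. Over the 37 CTCs HSPA5 and HSP90B1 had a rho of 0.64, with 0.85 over the 10 CTCs of 5545 and 0.54 over the 17 of 5546.

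**Figure D4:**
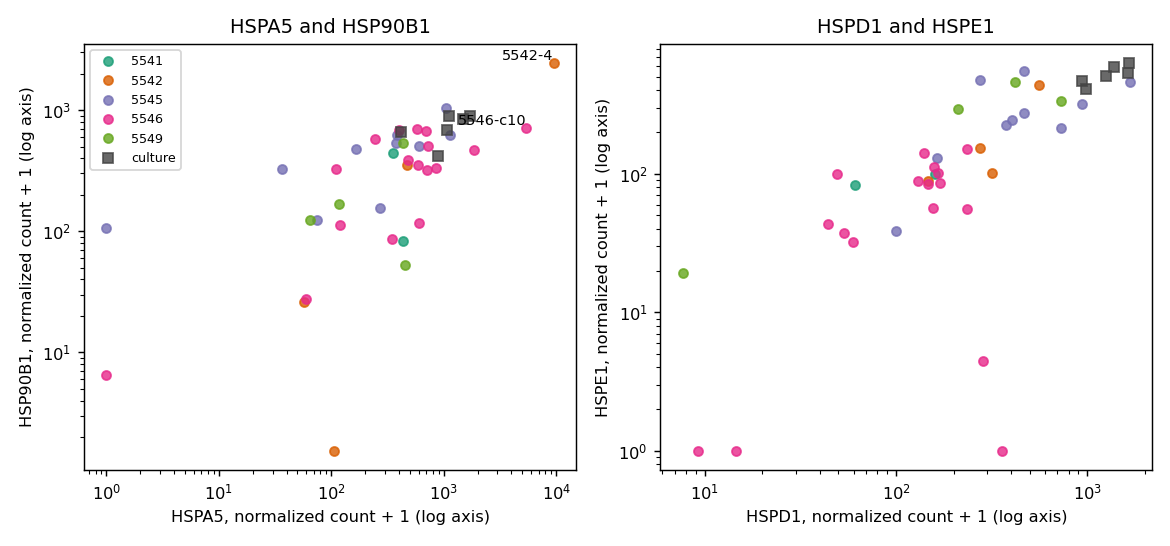
Normalized counts plus 1 on log axes of HSPA5 (x axis) and HSP90B1 (y axis) on the left, and of HSPD1 (x axis) and HSPE1 (y axis) on the right, in each CTC coloured by mouse and in the cultured cells (squares). CTCs 5542-4 and 5546-c10 are named and lie at the highest HSPA5 values, 9512 and 5408.

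The inducible HSP70 genes HSPA1A, HSPA1B and HSPA6 had few counts in CTCs. HSPA1B had a median of 3.65 normalized counts in CTCs and 29.3 in culture, and 32 of 37 CTCs were below the lowest cultured cell. The highest CTC, 5541-1, held 99.0 of HSPA1B, 21.4 of HSPA1A and 549 of DNAJB1, the J-domain partner of inducible HSP70. HSPA1A was detected in 18 of 37 CTCs and in 6 of 6 cultured cells, and HSPA6, which is transcribed almost only under stress, in 8 and 2. DNAJB1 overlapped between the groups, with 0 to 655 in CTCs and 157 to 571 in culture. The median of HSPA1A in culture was 3.79, so it had few counts there too. Relative to the median gene HSPA1B was at 0.17, HSPA1A at 0.41 and DNAJB1 at 0.20, each with mice on both sides of it. Without CTC 5541-1 HSPA1B was at -0.09. HSPA1A and HSPA1B encode nearly the same protein, and of the 50-base stretches of their transcripts only 24.9% and 26.4% occur in no other gene's transcript, so counting of uniquely mapped reads understates them and can split them.

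All 3 DNAJA genes with a mean of at least 8 were lower by the rule of size on the deposited scale, against 26.4% of all genes, and none in RPM, against 9.58%. DNAJA1, the cytosolic partner of HSPA8, had 334 ± 115 normalized counts (SD, n = 5 mice) and 1272 in culture. DNAJA3, a mitochondrial form, had 24.6 ± 15.7 and 125. DNAJB6, which keeps polyglutamine proteins from aggregating, had 144 ± 46.5 and 497 and was 1 of 7 such DNAJB genes that were called. Of 19 such DNAJC genes, DNAJC9, DNAJC11 and DNAJC14 were called lower, against the same 26.4% of all genes. DNAJC9, a histone chaperone, had 146 ± 71.3 and 412. Relative to the median gene DNAJA1, DNAJA3, DNAJB6 and DNAJC9 were at -0.50, -1.17, -0.34 and -0.30, each with mice on both sides of it. DNAJC9 ran from -2.40 in 5541 to 0.63 in 5549.

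DNAJC5 and DNAJC18 were named after their values were seen, since they lay highest with HSPB1. DNAJC5, the cysteine string protein of secretory vesicles, had means of 54.5, 48.8, 25.2, 51.5 and 42.2 in mice 5541, 5542, 5545, 5546 and 5549 and of 31.8 in culture, and was at 1.92 relative to the median gene. DNAJC18 was detected in 13 of 37 CTCs and was at 2.47, from a culture mean of 6.48. In mice 5542 and 5549 all its counts came from 1 CTC each, 5542-4 with 52.6 and 5549-6 with 94.9. HSPB8, a partner of BAG3, was detected in 6 CTCs, and 216 of its counts were in 5549-6. In CTC 5549-6 the LM2 markers took 0.758% of reads, the lowest of the CTCs, and the erythroid markers 1.28%, the highest. The part of this in its DNAJC18 and HSPB8 counts was not tested. DNAJA4 and HSPA12B had no read in any CTC and were each detected in 1 of 6 cultured cells. In all, 14 members were detected in fewer than 10 CTCs, and 10 in all 43 cells.

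Cell-to-cell spread among CTCs was wide for some abundant members. The SD of log2(value + 1) over the 37 CTCs was 0.78 for HSP90AA1, 1.04 for HSP90AB1 and 1.46 for HSPB1. It was 2.59 for HSPA5, 2.55 for DNAJA1, 2.85 for DNAJB11, 2.698 for DNAJC9 and 2.58 for HSPA14, the highest of the 47 members with a mean of at least 8. These 5 were without reads in 2 to 12 CTCs, and the loss of molecules before amplification and low expression cannot be told apart in them.

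Other genes of the pathway were taken from fixed lists. Of 28 HSF and co-chaperone genes in the table, 12 were lower by the rule of size and 0 higher, against 26.4% of all genes lower, and in RPM 3 were lower, namely STIP1, FKBP4 and BAG2, against 9.58%. STIP1, which links HSP70 to HSP90, had 85.0 ± 50.8 (SD, n = 5 mice) and 567 in culture and was at -1.49 relative to the median gene. FKBP4, an HSP90 co-chaperone, had 34.5 ± 17.3 and 345 and was at -2.03. HSF1 was at 0.07 and CDC37, which brings kinases to HSP90, at 0.11. Of the 6 prefoldin subunits, which hand actin and tubulin to the CCT ring, 0 were called and PFDN4 and PFDN5 were above the median gene in all 5 mice. Of 10 ER folding enzymes 4 were lower on the deposited scale and 0 in RPM, and of 7 mitochondrial proteases 2 and 1, against the same 26.4% and 9.58% of all genes.

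The edgeR quasi-likelihood test compared the summed reads of the 5 mice with those of the culture, whose spread it takes to be like that of the mice. It called 0 of 65 members tested higher and 0 lower, and 0% of 13813 genes in either direction. At an unadjusted p under 0.05 it had 2 members, HSPA8 (log2 fold change -1.62, SE 0.54, p = 0.0114, adjusted p = 1.0) and CCT3 (-1.67, SE 0.60, p = 0.0171), both lower, among 1.74% of all genes. HSPB1 was at 2.10 (SE 0.99, p = 0.0559). DESeq2 on the same sums called 18 genes higher and 2 lower, with 0 members among them, and HSPB1 was the 1 member at an unadjusted p under 0.05. The edgeR fold changes of the median gene and of the median member were 0.31 and 0.03.

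Reads that fit more than 1 place in the genome were not counted, and for some members this matters. Of the 72 members, 41 had over 95% of the 50-base stretches of their longest transcript to themselves and 12 had under 80%. HSPA8 had 83.5%, HSP90AB1 81.2% and HSP90AA1 78.6%, sharing the rest most with the pseudogenes HSPA8P1, HSP90AB3P and HSP90AA2P. HSPE1 had 72.7%, sharing most with HSPE1-MOB4. CCT5, DNAJC9 and TCP1 had 45.1%, 21.5% and 74.0%, sharing with overlapping or neighbouring genes, and since strand was not used reads of such genes cannot be told apart. These shares are the same in CTCs and culture, while their effect on the differences was not tested.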

How the data were processed

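Expression was measured by SMARTseq2, without unique molecular identifiers, in 37 CTCs and 6 cultured LM2 cells. The authors aligned reads with STAR 2.7.10a to GRCh38 and GENCODE 38, counted uniquely mapped reads without strand, left out 4 of 41 CTCs, and divided the counts by DESeq2 1.42.1 size factors. The deposited values are thus a signal of normalized counts per gene. Values were whole multiples of the lowest one in the same cell for 100% of nonzero entries (tolerance 0.001), so that reads could be recovered, and these gave shares, reads scaled to an equal total (RPM) and summed tests. Gene names and exon lengths came from GENCODE 44, which matched 25684 of 25739 identifiers.

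Mice, taken from the library names, were the replicates, and cells were not. The rule of size used a 2-fold difference, a pseudocount of 1 and a minimum mean of 8, and log2 ratios are on this pseudocount scale. Summed reads were tested with edgeR 4.0.16 (TMM, filterByExpr, Benjamini-Hochberg over all genes) in R 4.3.3, with DESeq2 1.42.0 as an alternative. Other steps used Python 3.11.15 (pandas 2.3.3, scipy 1.17.1). Methods were run on simulated reads that had no mouse effect and no overall shift between the groups. Their error rates in the present data are therefore not known from it.

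Named members were the 10 highest per kilobase, up to 12 called in each direction, the 5 with the widest spread and a fixed set of 27. The members and lists were chosen with earlier results of these data known. Alternatives were other pseudocounts, scalings, averages, folds and minimums, and leaving out mice, cultured cells or, chosen after the data were seen, single CTCs.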

Additional observations from a re-analysis of the deposited data

Results flagged for a closer look

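The share of reads on all members and on each family was examined in 50 groups of 4 to 10 values, and in 5 of them 1 value stood far from the others by Dixon's ratio, where chance gives about 1 in 20. CTC 5542-4 had 0.949% of its reads on the HSP70 family, against at most 0.121% in the other CTCs of its mouse, which is its HSPA5. CTC 5542-1 had 0.0652% on DNAJC genes, against 0.0997% for the next lowest of the 4. The median of mouse 5541 for DNAJB genes was 0.0968%, against 0.0512% for the next mouse, and rests on 2 CTCs. Of the cultured cells, LM-2 had 3.77% of its reads on all members, against 2.82% for the next, and LM-10 had 0.167% on DNAJA genes, against 0.120%.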

How the results depend on the processing

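No paired analysis was possible because the numbers shared between groups only name picked cells. The 22 members lower by the rule of size became 6 in RPM, 5 after thinning to the shallowest cell, 3 at a fold of at least 4 and 0 when centred on the median gene, and it was 30 with means of log2 values, 28 at a fold of at least 1.5 and 25 with no minimum. Centring and leaving out single CTCs were added after the data were seen. The median log2 ratio over members, -1.74, was -1.51 with a pseudocount of 5, -1.01 in RPM, -1.04 after thinning, -2.26 with means of log2 values, -1.45 with no minimum and -0.24 when centred. Leaving out a mouse or a cultured cell gave 21 to 24 members lower and a median of -1.83 to -1.53, and 0 members higher. The median share ran from 1.37% to 1.56% in CTCs and from 2.73% to 2.75% in culture. The edgeR test called 0 members in either direction, also in its alternatives, but with 1 culture sum and 0 of 13813 genes called this says nothing of stability. DNAJC9, lower by the rule of size, had an edgeR fold change of 0.0296 on the log2 scale, and the cause was not tested. This was also the median of the 65 members in that fit, where the median gene was at 0.31. Members with a few reads are limited by depth or by the loss of molecules before amplification.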
